A study of Homo sapiens with 4 samples.

Results

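The miR-183, miR-96 and miR-182 cluster consists of 3 microRNA (miRNA) genes that lie side by side on chromosome 7, MIR183, MIR96 and MIR182. Its members were found by symbol from the Ensembl identifiers of the count tables, and all 3 were present among 7062 listed small RNA features, of which 1870 were miRNA genes. Small RNA had been sequenced from HEK293T cells, a line derived from human embryonic kidney, that depended on a transfected RPB1, which is the largest subunit of Pol II (RNA polymerase II). In the group 52X WT the 52 heptads of the C-terminal domain carried their wild-type threonine, and in 52X T4A the threonine at heptad position 4 was changed to alanine, which cannot be phosphorylated. Both groups shared everything else that the labels state: the RPB1 resisted α-amanitin, plasmid was given transiently at 1.5 µg per well, and endogenous Pol II was removed with 2.5 µg/ml α-amanitin over 72 h. Each group had 2 libraries, and the comparison asked whether the level of the cluster depends on a CTD that can be phosphorylated at Thr4. As a model the groups are limited by transient transfection, which can give cells of unequal RPB1 dose, and by the drug, which acts on both.

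miRNAs of this kind are made by Pol II as a long primary transcript, from which Drosha cuts each hairpin and Dicer then releases a duplex, and one strand of it enters Argonaute to repress mRNAs that pair with its seed. The miR-183 cluster is best known from sensory cells, where all its members are made at high level in photoreceptors of the retina and hair cells of the inner ear. Sequence changes in MIR96 cause a form of inherited hearing loss. The cluster is also often raised in epithelial tumours.

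The genes are shown by their mature sequences, because the shared seed region is what makes the 3 miRNAs a family although their counts differ widely. The sequences are those of RefSeq (GRCh38.p14), 5′ to 3′, with the seed (bases 2 to 8) in capitals. The 5p arm is the one that carries the family seed.
miR-183-5p: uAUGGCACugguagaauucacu
miR-96-5p: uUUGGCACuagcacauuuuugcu
miR-182-5p: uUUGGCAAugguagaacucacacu
Counted from base 1 at the 5′ end, the seed of miR-183-5p differs from that of miR-96-5p by A2U, and the seed of miR-96-5p from that of miR-182-5p by C8A. Between miR-183-5p and miR-182-5p both changes, A2U and C8A, apply. Over the whole mature sequence, seed included, miR-183-5p and miR-182-5p are the closest pair, with 18 identical bases of 22 compared without gaps, whereas miR-96-5p has 13 of 22 in common with miR-183-5p and 12 of 23 with miR-182-5p. The 3p arms share no seed.
miR-183-3p: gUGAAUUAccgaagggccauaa
miR-96-3p: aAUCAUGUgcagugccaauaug
miR-182-3p: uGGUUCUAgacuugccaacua
Each of these 6 mature sequences matched the GRCh37 primary assembly exactly once, and none was contained in the hairpin of another gene of the RefSeq table. An exact full-length read of these miRNAs therefore had a single place in that assembly. The deposited counts were made per hairpin, so reads of the 5p and the 3p arm are pooled in each value below.

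In the deposited coordinates (hg38), MIR183 (ENSG00000207691.1) lies at chr7:129774905-129775014, MIR96 (ENSG00000199158.1) at chr7:129774692-129774769 and MIR182 (ENSG00000207990.3) at chr7:129770383-129770492, all on the minus strand. These positions were identical to those in RefSeq. Read in the direction of transcription, MIR183 comes first, MIR96 follows after a gap of 135 bases, and MIR182 after a further 4199 bases. In GENCODE v44lift37 all 3 hairpins fall in introns of 1 long noncoding RNA gene on the same strand, ENSG00000286380, and overlap no exon of it. No other listed feature overlapped a member, and no other feature had counts within 2% of a member's in all 4 libraries.

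The libraries held between 16180790 and 27370127 counts, of which 63.5% to 75.3% were in miRNA genes. Levels are given as CPM, the counts of a library divided by its TMM-scaled size and expressed per 1000000. miRNAs that mark other cell types were looked at as lists. The summed level of 6 muscle miRNAs was 96.7 and 81.6 CPM in 52X T4A replicates 1 and 2 and 30.5 and 33.1 CPM in 52X WT replicates 1 and 2, nearly all of it from MIR1-1 and MIR1-2, a pair of copies with nearly equal counts (edgeR, FDR 0.186 for each). Of its 4 tested genes 0 were called by edgeR and 4 had an unadjusted p-value under 0.05, while DESeq2 called 2. Over all features edgeR called 0.135% and had 10.3% under that p-value, and DESeq2 called 2.09%. The 4 tested muscle genes are not 4 separate results. MIR133A1 and MIR133A2 are also copies with nearly equal counts, from 2 to 29 per library. The liver miRNA MIR122 stayed between 0.253 and 0.948 CPM, and the 3 MIR124 genes of neurons summed to between 4.36 and 12.1 CPM. For both, the groups overlapped. The 5 blood miRNAs summed to 2.53 and 2.53 CPM in 52X T4A and to 0.822 and 1.75 CPM in 52X WT. No listed marker was at 0 in all libraries. The muscle miRNAs, and at a far lower level the blood miRNAs, stood higher in both 52X T4A libraries, as MIR182 did. Such a separation was seen for 18.9% of all tested features. The part of these lists in the values of MIR182 was not tested. In bulk RNA, fewer cells that make a miRNA and less of it per cell cannot be told apart.

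MIR182 and MIR183 were among the abundant miRNAs of these cells, and MIR96 was not. Levels of different genes were compared per kilobase of annotated hairpin, since the hairpins differ in length. On this scale MIR182 stood at 132715 to 180761 CPM per kb in 52X T4A and at 115989 and 116797 CPM per kb in 52X WT. MIR183 came next, at 80720 and 108298 CPM per kb in 52X T4A and at 78086 and 86646 CPM per kb in 52X WT. MIR96 was far below both, with 767 to 1198 CPM per kb over the 4 libraries. The order MIR182, MIR183, MIR96 was the same in every library, and the values of no member reached those of another in any library. Among all miRNA genes ranked on the same scale within a library, MIR182 took places 8 to 19, MIR183 places 19 to 25 and MIR96 places 141 to 158. The mature arms measure 21 to 24 bases in all 3 members, so counts need not grow with hairpin length. Ranked by CPM without length, MIR182 took places 5 to 15, MIR183 places 14 to 20 and MIR96 places 143 to 161.

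MIR182, whose miRNA is known to act on the transcription factor FOXO1, had 314711 and 460930 counts in 52X T4A replicates 1 and 2 and 186180 and 241860 counts in 52X WT replicates 1 and 2. Scaled for depth, its level was 19884 and 14599 CPM in 52X T4A and 12759 and 12848 CPM in 52X WT. Both 52X T4A libraries lay above both 52X WT libraries, and the 52X WT libraries were almost equal while the 52X T4A libraries were not. Group levels were 17241 ± 3737 CPM and 12803 ± 62.9 CPM (mean ± SD, n = 2). On the log2 scale, 52X T4A exceeded 52X WT by 0.43 ± 0.21 (SE), with a 95% interval from −0.036 to 0.89, or a fold of 1.35 with an interval from 0.975 to 1.86. In edgeR's quasi-likelihood test over all features this did not pass, with a p-value of 0.0667 and a Benjamini-Hochberg adjusted p-value (FDR) of 0.467. A separation of the groups in this direction was seen for 18.9% of the 1480 features tested, so it is no distinction of MIR182. Without 52X T4A replicate 1 the log2 fold change was 0.17, and without 52X T4A replicate 2 it was 0.65.

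MIR183, which gives the cluster its name, had 188551 and 280347 counts in 52X T4A and 125340 and 179424 counts in 52X WT. Its level was 11913 and 8879 CPM in 52X T4A and 8589 and 9531 CPM in 52X WT. Here the groups overlapped, since 52X T4A replicate 2 fell between the 52X WT libraries. Group levels were 10396 ± 2145 CPM and 9060 ± 666 CPM (mean ± SD, n = 2). The log2 fold change was 0.20 ± 0.21 (SE) with a 95% interval from −0.27 to 0.67, and it did not pass the test (edgeR, FDR 0.729). As plain shares of all counts the libraries did separate, at 1.17% and 1.02% in 52X T4A against 0.774% and 0.936% in 52X WT, so whether the groups overlap for MIR183 depends on the scaling. Without 52X T4A replicate 1 the log2 fold change turned to −0.046, and without 52X WT replicate 1 it was 0.020.

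MIR96 had 1397 and 1890 counts in 52X T4A and 1235 and 1759 counts in 52X WT. Its level was 88.3 and 59.9 CPM in 52X T4A and 84.6 and 93.4 CPM in 52X WT. The lowest library was a 52X T4A library, but the other one lay between the 52X WT libraries, and the groups overlapped. Group levels were 74.1 ± 20.1 CPM and 89 ± 6.23 CPM (mean ± SD, n = 2). The log2 fold change was −0.27 ± 0.29 (SE) with a 95% interval from −0.93 to 0.40, which did not pass the test (edgeR, FDR 0.746). Without 52X T4A replicate 2 it was 0.0035.

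**Figure D1:**
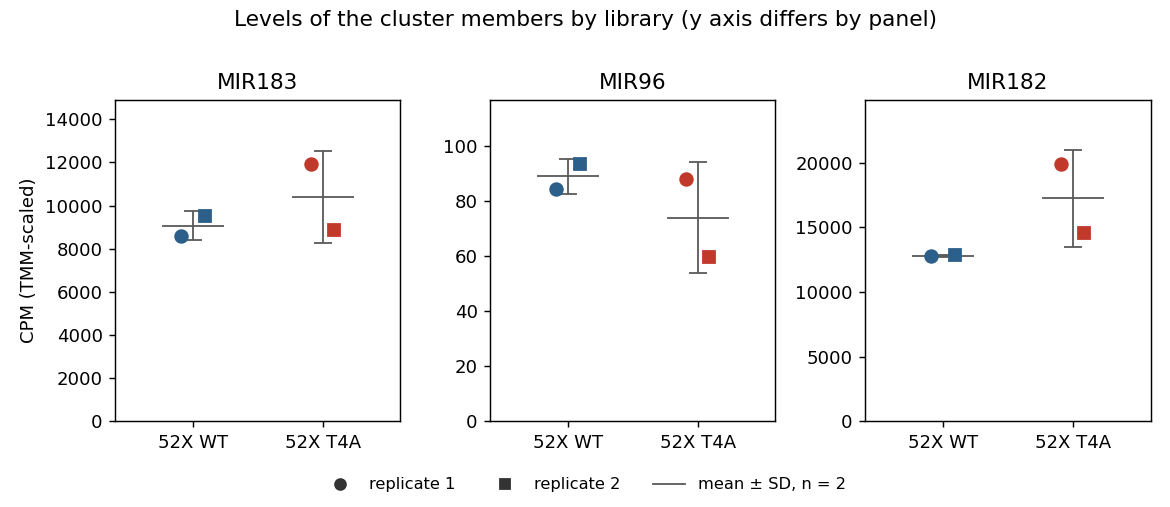
Level of each cluster member in CPM (y axis from 0, with its own scale in each panel) in the 52X WT and 52X T4A libraries; circles are replicate 1, squares replicate 2, and bars the mean ± SD of 2 libraries. For MIR182 both 52X T4A points, at 19884 and 14599 CPM, lie above the 52X WT points, whereas for MIR183 and MIR96 the groups overlap.

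Calling a feature required a change of more than 1.5-fold with an FDR under 0.05. Of the members 0 of 3 met this in edgeR's test, as did 0.135% of all tested features, and 0 of 3 in DESeq2, as did 2.09% of the features with an adjusted p-value there. An unadjusted p-value under 0.05 was reached by 0 of 3 in edgeR, against 10.3% of the 1480 tested features. In DESeq2 it was also 0 of 3, against 3.34% of 3803 features, which include those of low count that the edgeR filter removed. The upper ends of the intervals leave room for a 1.86-fold higher MIR182, a 1.59-fold higher MIR183 and a 1.32-fold higher MIR96 in 52X T4A, and the lower ends for MIR96 at 0.525 of its 52X WT level, so levels were not shown to be equal. Beside these, the median log2 fold change was −0.045 over all 1480 tested features and −0.017 over the 621 tested miRNA genes.

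Taken as a sum, the 3 members made 3.12% and 2.72% of all counts in 52X T4A replicates 1 and 2, against 1.93% and 2.21% in 52X WT replicates 1 and 2. As a share of miRNA counts alone the sum was 4.4% and 3.61% in 52X T4A and 3.04% and 3.01% in 52X WT. On both scales the 52X T4A libraries were the higher ones. How often features separate in this way on these scales was not counted. By CPM it was 18.9% of the tested features. With library size alone, the median log2 fold change over all tested features was 0.14. In CPM the sum was 27711 ± 5902 in 52X T4A against 21952 ± 735 in 52X WT (mean ± SD, n = 2), a log2 ratio of 0.34, which fell to 0.10 without 52X T4A replicate 1. The sum follows MIR182 and MIR183, because MIR96 made at most 0.416% of it.

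The proportions of the members within the cluster can be read without any scaling between libraries, and these separated the groups for every member. Such a separation was common in these libraries, since the ratios of 30.4% of 56 pairs of members of other miRNA clusters also did not overlap between the groups. The 6-member clusters from MIR17 to MIR92A1 and from MIR106A to MIR363 gave many of these pairs, and most of theirs overlapped. The share thus leans on these clusters. MIR96 took 0.277% (95% Wilson interval 0.263 to 0.292) and 0.254% (0.243 to 0.266) of the counts of the miR-183 cluster in 52X T4A. In 52X WT it took 0.395% (0.373 to 0.417) and 0.416% (0.397 to 0.436). The intervals cover counting error only, since reads without molecular identifiers are not independent molecules. Both 52X T4A shares of MIR96 lay below both 52X WT shares, by more than counting error. The means were 0.266% ± 0.0159 and 0.405% ± 0.0148 (SD, n = 2), a difference of −0.140 percentage points against a pooled replicate SD of 0.0154. With counts divided by hairpin length, the MIR96 share was 0.390% and 0.358% in 52X T4A and 0.556% and 0.585% in 52X WT.

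MIR183 also took a smaller part of the cluster in 52X T4A, with 37.4% and 37.7%, than in 52X WT, with 40.1% and 42.4%. The difference of its means was −3.70 percentage points against a pooled replicate SD of 1.18. MIR182 made up the rest, at 62.4% and 62.0% in 52X T4A and 59.5% and 57.2% in 52X WT. Its difference was 3.84 points with a pooled replicate SD of 1.19. Each difference was thus larger than the spread between replicates. Since the groups did not overlap in these shares, leaving out 1 of the 4 libraries could not turn a direction. The shares were tested only by an exact two-sided permutation test, which gave p = 0.333 for each member. That is the smallest value this test can give with 2 against 2 libraries, so it could not have called a difference of any size. The 3 shares add to a fixed total and are not separate results.

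**Figure D2:**
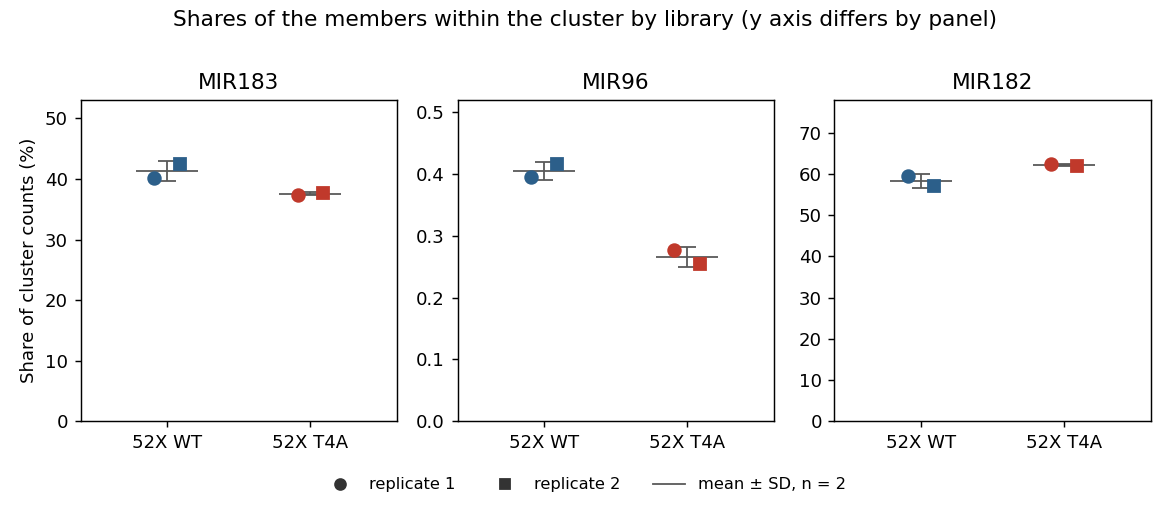
Share of each member in the summed counts of the cluster, in percent (y axis from 0, with its own scale in each panel), by group; circles are replicate 1, squares replicate 2, and bars the mean ± SD of 2 libraries. The MIR96 share is 0.254% to 0.277% in 52X T4A and 0.395% to 0.416% in 52X WT, while the MIR182 share is higher and the MIR183 share lower in 52X T4A.

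As log2 ratios within a library, MIR96 over MIR182 was −7.82 and −7.93 in 52X T4A and −7.24 and −7.10 in 52X WT. In raw reads, not set per length, this is 225 and 244 MIR182 reads for each MIR96 read in 52X T4A, and 151 and 137 in 52X WT. The mean log2 ratio was −7.87 ± 0.0809 and −7.17 ± 0.0939 (SD, n = 2), a difference of −0.70, and it ran from −0.77 to −0.64 when each library was left out in turn. MIR96 over MIR183 differed by −0.48 in the same sense, at −7.08 and −7.21 against −6.67 and −6.67. MIR183 over MIR182 differed least, by −0.23, at −0.74 and −0.72 against −0.57 and −0.43, and leaving out each 52X WT library in turn gave −0.30 (replicate 1 absent) and −0.16 (replicate 2 absent). The members were thus ordered in 52X T4A relative to 52X WT with MIR182 first, MIR183 second and MIR96 last, which is not their order along the transcript.

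To see how far members of a miRNA cluster usually part in these libraries, 20 other clusters were measured in the same way. The range of log2 fold changes within a cluster was 0.70 for the miR-183 cluster. The median of the 20 others was 0.34, and they ran from 0.025 in MIR221 and MIR222 to 0.78 in MIR30B and MIR30D. A range can only grow with more members, and most of the others had 2 tested members against 3 here. Among the others with 3 tested members it was 0.15 (MIR106B), 0.71 (MIR23B) and 0.76 (MIR23A and MIR99B). A wider range than that of the miR-183 cluster was found in 4 others, those of MIR23A, MIR23B, MIR30B and MIR99B. Those of MIR23A and MIR23B may not be separate results. MIR27A and MIR27B were at −0.40 and −0.39, and MIR24-2 and MIR24-1 at 0.038 and 0.032. MIR92A1 and MIR92A2, in the clusters of MIR17 and MIR106A, were likewise both at −0.48. The 6 members from MIR17 to MIR92A1 spanned 0.37. Of the 56 pairs of members in these other clusters, 4 differed in log2 ratio by more than MIR96 and MIR182 did. The median size of the difference was 0.17 over those pairs, many of which come from the 6-member clusters of MIR17 and MIR106A. The difference for MIR96 over MIR182 was thus toward the upper end without being the largest, but it is the largest of the cluster's own 3 pairs. More of the 56 pairs exceeded the others, 6 for MIR96 over MIR183 and 21 for MIR183 over MIR182. No test of the difference in spread between clusters was made.

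**Figure D3:**
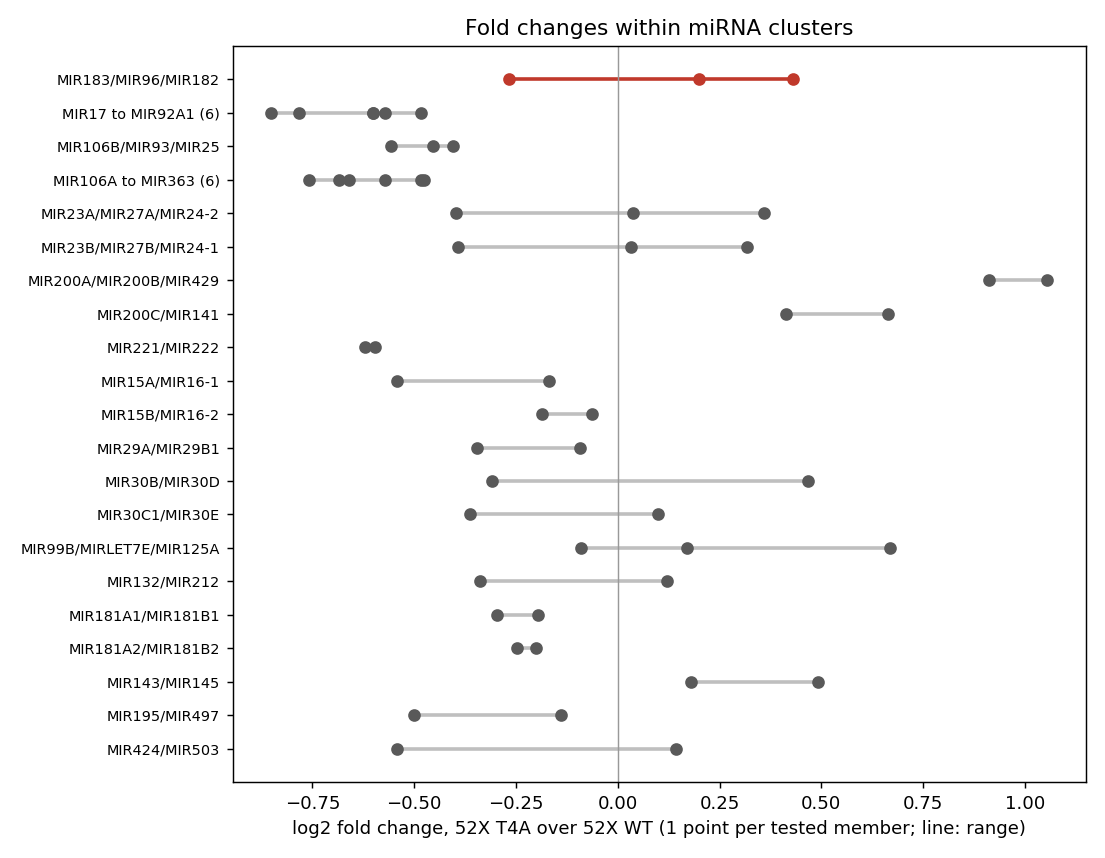
Log2 fold change of 52X T4A over 52X WT (x axis) for each tested member (points) of the miR-183 cluster (top row, red) and of 20 other miRNA clusters (grey), with a line from the lowest to the highest member; counts in brackets are members of long clusters. The miR-183 cluster spans 0.70, from MIR96 at −0.27 to MIR182 at 0.43, on both sides of 0, while the 6 members from MIR17 to MIR92A1 all lie below 0.

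A seed identical to that of a member occurs in 1 other mature miRNA of the RefSeq table, miR-1271-5p, which has the seed of miR-96-5p and differs from it by U1C at the first base.
miR-1271-5p: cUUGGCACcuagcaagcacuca
Its gene MIR1271 (chromosome 5 from 176367946 to 176368031) is not linked to the cluster and was at 28.7 and 31.6 CPM in 52X T4A and 27.4 and 24.8 CPM in 52X WT. The 52X T4A libraries were the higher ones, by little, a separation seen for 18.9% of all tested features. The log2 fold change of MIR1271 was 0.21 ± 0.30 (SE; edgeR, FDR 0.822), opposite in sign to that of MIR96, and neither passed the test.

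Around the cluster, 18 other features were listed within 2 Mb of MIR96, and 9 of them had no counts in any library. The 5 tested ones included 4 miRNA genes, and 0 of the 5 were called or had an unadjusted p-value under 0.05 in edgeR or in DESeq2. Over all features edgeR called 0.135% and had 10.3% under that p-value, and DESeq2 called 2.09% and had 3.34%. With so few genes, 0 called is no distinction of the neighbours. MIR129-1, a miRNA typical of brain that lies on the other strand, was at 181 and 141 CPM in 52X T4A and 108 and 142 CPM in 52X WT, with a log2 fold change of 0.37 ± 0.28 (SE) and an FDR of 0.593 in edgeR's test. Its 52X T4A replicate 2 and 52X WT replicate 2 were nearly equal. MIR29A, which acts on collagen mRNAs, was at 63.9 and 88.1 CPM in 52X T4A and 107 and 86.4 CPM in 52X WT, with a log2 fold change of −0.35 ± 0.29 (SE). Of the 5 tested neighbours, MIR129-1 was the 1 above 0. The other 4 were below 0, with log2 fold changes of −0.094 for MIR29B1, −0.63 for a Y_RNA copy and −0.78 for MIR335 beside that of MIR29A. Below 0 lay 53.9% of all tested features.

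Other miRNAs of the tissues in which the cluster is best known were counted as lists. Of 9 miRNA genes of retina and other sensory or neural tissue, 8 were tested. Of these 0 were called or had an unadjusted p-value under 0.05 in edgeR or DESeq2. Over all features edgeR called 0.135% and had 10.3% under that p-value, and DESeq2 called 2.09% and had 3.34%. The listed genes lay 1 above and 7 below 0, with a median log2 fold change of −0.36. Below 0 lay 53.9% of all tested features. The 7 genes below 0 stand for only 3 miRNAs, since they are 3 copies of MIR9, 3 copies of MIR124 with nearly equal counts, and MIR204. The list was dominated by MIR9-1, MIR9-2 and MIR9-3, each at 4214 to 5332 CPM, whose nearly equal counts come from an identical mature miRNA and cannot be told apart. The 3 copies had the same log2 fold change of −0.18 ± 0.20 (SE), on the other side of 0 from MIR182. MIR204, a miRNA of the retinal pigment epithelium, was at 5.43 and 6.08 CPM in 52X T4A and 8.36 and 8.29 CPM in 52X WT, with a log2 fold change of −0.53 ± 0.33 (SE).

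Of 6 epithelial miRNA genes, 5 were tested and 0 were called by edgeR or DESeq2, against 0.135% and 2.09% of all features. All 5 were above 0, with a median log2 fold change of 0.66, while 53.9% of all tested features were below 0. They are not 5 separate results, since MIR200A and MIR200B lie in 1 cluster and MIR200C and MIR141 in another. For MIR141, with 15 to 68 counts per library, and MIR205, with 17 to 42, the groups overlapped. The epithelial miRNAs keep epithelial cells in their state by repressing ZEB1 and ZEB2. MIR200C was at 29.1 and 31.2 CPM in 52X T4A and 21.0 and 17.1 CPM in 52X WT, with a log2 fold change of 0.66 ± 0.31 (SE) and an FDR of 0.467 in edgeR's test. MIR200B was at 19.9 and 16.6 CPM in 52X T4A and 9.32 and 10.0 CPM in 52X WT, with a log2 fold change of 0.91 ± 0.32 (SE) and an FDR of 0.395 in that test. For both, the 52X T4A libraries were the higher ones, as for MIR182 and for 18.9% of all tested features. An unadjusted p-value under 0.05 was found for 2 epithelial genes in edgeR, MIR200B at 0.019 and MIR200A at 0.0273, against 10.3% of 1480 features. In DESeq2 it was found for 4 of the 6 genes, against 3.34% of 3803 features. The DESeq2 share includes features of low count that the edgeR filter removed, so the 2 shares are not alike.

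The features whose level followed the cluster most closely over the 4 libraries were sought by the root mean square distance of log2 CPM, centred on each feature's own mean, from the mean of the 3 members. Among 752 other features that averaged 100 counts or more, the median distance was 0.335. The closest were MIR4746 (0.0146), MIR143 (0.0540), RN7SL767P (0.0686), RN7SL4P (0.0812) and MIR331 (0.0819). These had log2 fold changes from 0.024 to 0.18 and none was called by edgeR. The distance of MIR183 to the mean of the members was 0.0486, but that of MIR182 was 0.159 and that of MIR96 0.199, and 90 and 141 of the other features were closer to that mean than these. With 4 libraries, such closeness is a description only, and it was marked chiefly by a high value in 52X T4A replicate 1.

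Under the processing alternatives, the members kept their order, with MIR182 above MIR183 and MIR183 above MIR96 in log2 fold change in each of them. The order follows from the ratios of the members within a library, which scaling does not change. Those ratios did not overlap between the groups, so leaving out 1 library could hardly change the order either. The kept order is therefore no added support. With all 4 libraries in the fit, MIR182 ranged from 0.41 to 0.59, MIR183 from 0.18 to 0.36 and MIR96 from −0.29 to −0.11, so no scaling turned a sign. The lowest FDR of MIR182 was 0.158, without a filter on low counts, and the highest of the settings with all libraries was 0.681, in DESeq2.

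**Figure D4:**
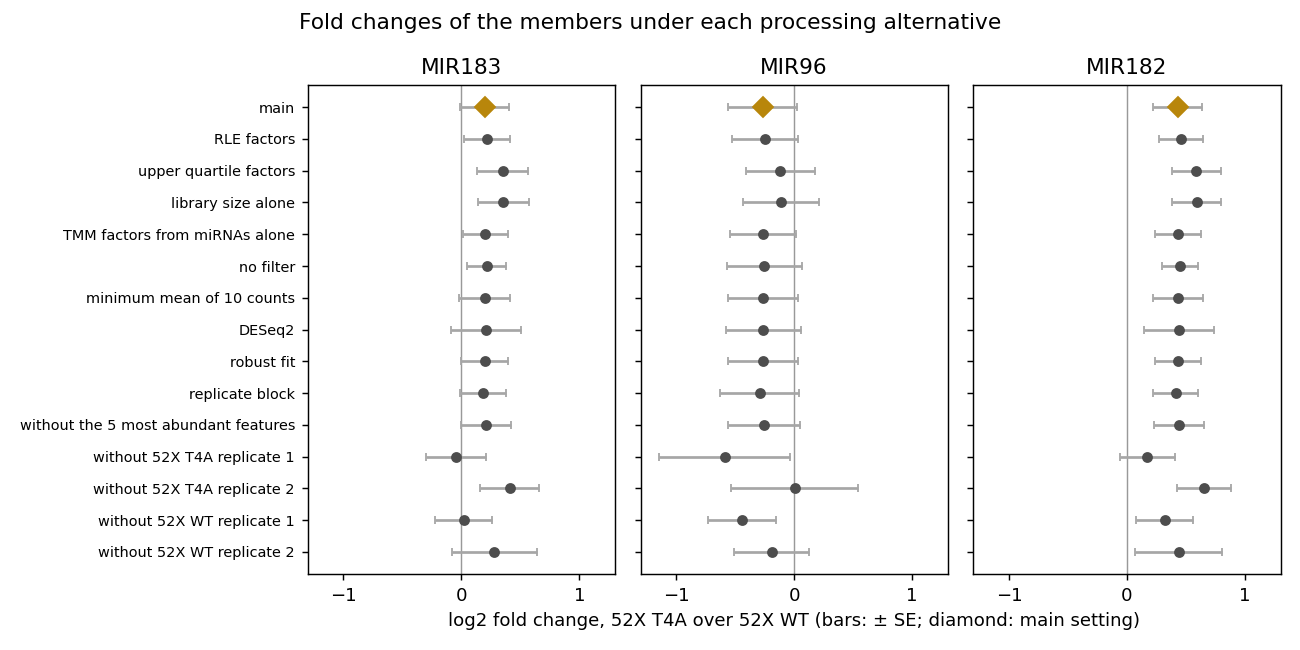
Log2 fold change of 52X T4A over 52X WT with its standard error (x axis) for each member under the main setting (diamond) and 14 alternatives (points). MIR182 stays above 0 throughout, from 0.17 to 0.65, while MIR183 and MIR96 each cross to the other side of 0 when a 52X T4A library is left out.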

How the data were processed

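Small RNA was sequenced as 50 bp single-end reads from 4 libraries, 2 for each of the groups 52X T4A and 52X WT. The authors deposited raw counts of reads per annotated small RNA feature, 1 table per library, without normalization. The submitters' processing notes name cutadapt v4.6, Bowtie2 v2.3.5.1, featureCounts v1.5.0 and hg38; their settings and the treatment of reads with several matches are not given in the sources used here, and hairpin counts pool both arms. Ensembl identifiers gave names in GENCODE v44lift37 for 5579 of 7062 features, and an identical RefSeq position (GRCh38.p14) named another 908. No coordinates were converted between builds.

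In R v4.3.3, edgeR v4.0.16 (glmQLFit and glmQLFTest, the quasi-likelihood test) was fitted to the counts with group as the only term, after filterByExpr at a minimum count of 10 and TMM scaling. Benjamini-Hochberg adjustment ran over all 1480 tested features, and calls required a change of more than 1.5-fold with an FDR under 0.05. The standard error was the log2 fold change divided by the square root of F, and the 95% interval used the t quantile of the fit. CPM used TMM-scaled library sizes, and shares have Wilson intervals. The labels do not say what separated the replicates, so p-values measure the spread between these samples, which may be technical.

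The genes named were the 3 members, miRNAs with an identical 5p seed, features within 2 Mb, the 5 features most alike in profile, and fixed lists of sensory, epithelial, clustered and cell type miRNAs. Members and lists were chosen with earlier results of these data known. Alternatives covered scaling, the filter, DESeq2 v1.42.0, a robust fit, the replicate number as a block, removal of the 5 most abundant features and of each library in turn.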

Additional observations from a re-analysis of the deposited data

How the results depend on the processing

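The number of called features over the whole table was 2, and it was 9 with library size alone, 29 without a filter, 28 with DESeq2, 18 with the replicate number as a block and 0 in edgeR with TMM factors taken from miRNAs only (143 at an unadjusted p-value under 0.05). It ran from 4 to 218 when each library was left out, with 218 without 52X WT replicate 2, 35 without 52X WT replicate 1, 6 without 52X T4A replicate 1 and 4 without 52X T4A replicate 2. In those fits the lone library of a group is assumed to vary like the others. For these counts the cause was not tested. No member was called under any of the 14 alternatives, and MIR182 had an unadjusted p-value below 0.05 in 6 of them. With each library left out, the log2 fold change ran from −0.046 (without 52X T4A replicate 1) to 0.41 for MIR183, from −0.59 to 0.0035 (without 52X T4A replicate 2) for MIR96 and from 0.17 to 0.65 for MIR182. The differences of the shares ran from −4.87 to −2.53 points for MIR183, from −0.151 to −0.129 for MIR96 and from 2.66 to 5.02 for MIR182. Dividing counts by feature length moved the MIR96 difference to −0.197 points. The log2 ratio of the summed cluster ran from 0.10 to 0.54, with 0.10 when 52X T4A replicate 1 was absent. Over all tested features the median was −0.045, and 0.14 with library size alone and 0.13 with upper quartile factors, so part of a change of that size depends on the scaling.

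With the replicate block the log2 fold changes were 0.18 for MIR183, −0.29 for MIR96 and 0.41 for MIR182, and no call of a member changed. Nothing in the labels ties libraries of equal number together, and across features their deviations from the group means correlated at 0.0946. Depth does not limit MIR182 or MIR183, whereas 2 libraries per group limit every comparison here.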
